A study of Mus musculus with 15 samples.

Results

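The 10 genes described here code for receptors of acetylcholine, or for small proteins that tune them, in the mouse prefrontal cortex (PFC). They are 4 muscarinic receptors (Chrm1, Chrm2, Chrm3 and Chrm4), 4 subunits of nicotinic receptors (Chrna4, Chrna5, Chrna7 and Chrnb2) and 2 members of the Lynx family (Lynx1 and Lypd6). They were taken by symbol from the 26145 genes of the deposited gene lists, and all 10 were found. The question was in which cells of the PFC each gene was expressed, how its level differed between adolescence and adulthood, and how it differed between mice that had taken cocaine and mice that had taken saline.

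Single-cell RNA-seq libraries came from male C57BL/6N mice. The adolescent group (P21) held 3 libraries of mice aged 3 weeks that had no self-administration phase. The adult mice (P60) were labelled 8 to 10 weeks old, had self-administered cocaine or saline through an intravenous line, and were taken at the end of maintenance, after 48 h of withdrawal or after 15 d of withdrawal, with 2 libraries in each of these 6 groups. The 6 saline libraries of the 3 phases together were the adult side of the age comparison, so that age and the self-administration procedure cannot be told apart. A library pooled tissue from 2 mice, and since the study's methods name fewer P21 mice than this would take, P21 libraries may share animals.

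The deposited annotation, in which P21 cells had been assigned to the P60 clusters by correlation, gave each of 35360 retained cells (24822 at P60 and 10538 at P21) a class and one of 104 fine clusters, called L2 clusters, of which 26 were excitatory (Exc_1 to Exc_26) and 12 inhibitory (Inhib_1 to Inhib_12). Libraries held 8375172 to 42892922 UMIs, or unique molecular identifiers, each standing for 1 captured transcript, with a median of 3426 to 11334.5 per cell. Levels are given in CPM (UMIs of a gene scaled to the usual common total of UMIs, summed over the cells of a library and type), with mitochondrial and ribosomal protein genes left out. Since 3′ ends were counted, CPM does not grow with transcript length. A gene is called below where edgeR's quasi-likelihood test gave a Benjamini-Hochberg adjusted p under 0.05 over all genes tested and the change exceeded 1.5-fold. No 2 libraries shared more than 27 cell barcodes. Another label of the samples reads NAc for the tissue, although titles and methods give the PFC, and 3 markers of striatal projection neurons were low in inhibitory neurons. Over the 11 P60 libraries other than Cocaine_withdraw_48h replicate 2, Drd2 had a median of 1.67 CPM (0 to 7.42), Adora2a of 2.16 CPM (0 to 6.87) and Ppp1r1b of 6.49 CPM (0 to 18.0), the last with a UMI in 11.9% of inhibitory cells of Cocaine_withdraw_15d replicate 1.

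One library stood apart from the rest. In Cocaine_withdraw_48h replicate 2 the inhibitory neurons (152 cells) held Meis2, a transcription factor of some interneuron lineages, at 579 CPM, against 2.63 to 41.7 CPM in the 11 other P60 libraries. In its 58 Inhib_3 cells the precursor of thyrotropin-releasing hormone, Trh, stood at 1398 CPM and was at 0 in the 3 other libraries with enough of these cells. These genes were picked after their values were seen. The high P60 levels of Chrm2 in Inhib_3 and Inhib_7 rest on this library, as does its cocaine comparison in inhibitory neurons. These values are given with and without it.

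Acetylcholine reaches the cortex mainly from neurons of the basal forebrain. Muscarinic receptors are coupled to G proteins, with M1 and M3 acting through Gq on phospholipase C and M2 and M4 acting through Gi on adenylyl cyclase. Nicotinic receptors are pentameric ion channels: α4 and β2 form the common high-affinity channel of the brain, α5 joins it as an accessory subunit, and α7 can form channels on its own. Lynx1 is a membrane-anchored protein that dampens nicotinic receptors and is known as a brake on plasticity in the visual cortex, and Lypd6 is a related protein of the Ly6 family.

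In the mm9 annotation the muscarinic genes lie at chr19:8738495-8758077 (Chrm1), chr6:36338084-36478414 (Chrm2), chr13:9876381-9878329 (Chrm3) and chr2:91762346-91769986 (Chrm4). The nicotinic subunits lie at chr2:180753085-180778251 (Chrna4), chr9:54828687-54855586 (Chrna5), chr7:70243578-70357455 (Chrna7) and chr3:89557370-89568554 (Chrnb2), and the Lynx genes at chr15:74578286-74583409 (Lynx1) and chr2:49921982-50049084 (Lypd6). UMIs were counted per gene, so that isoforms were not separated.

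The muscarinic receptor M1 was higher in excitatory than in inhibitory neurons. In the 12 P60 libraries Chrm1 stood at 72.7 CPM in the lowest, 91.1 in the median and 110 in the highest library of excitatory neurons, with a mean of 90.9 ± 11.7 (SD, n = 12). In inhibitory neurons the same libraries had 29.3, 34.4 and 55.4 CPM, so the 2 classes did not overlap. Of 18264 Chrm1 UMIs at P60, 96.1% lay in excitatory cells. These were also the most numerous class (14443 of 24822 cells) and the deepest, so the share reflects their number and depth as well. A UMI of Chrm1 was found in 65.1% of excitatory cells and in 1.86% of microglia, taken here as the background of free RNA. The median depths differed (13620 and 3213 UMIs), but at 2000 UMIs drawn from each cell 16.2% and 1.04% held one. Levels by L2 cluster were compared over the 74 of 91 clusters with at least 3 P60 libraries of 10 or more cells, and orders given below are among these 74. Among them Exc_5 had the highest mean level (126 ± 22.3 CPM, n = 12), followed by Exc_9 (113 ± 23.1), Exc_4 (113 ± 22.6) and Exc_1 (111 ± 33.4). These clusters carry Cux2 and Calb1, markers of the upper layers. The order was shallow, since the 13th cluster was the first whose mean differed from that of Exc_5 by more than the SDs.

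**Figure D1:**
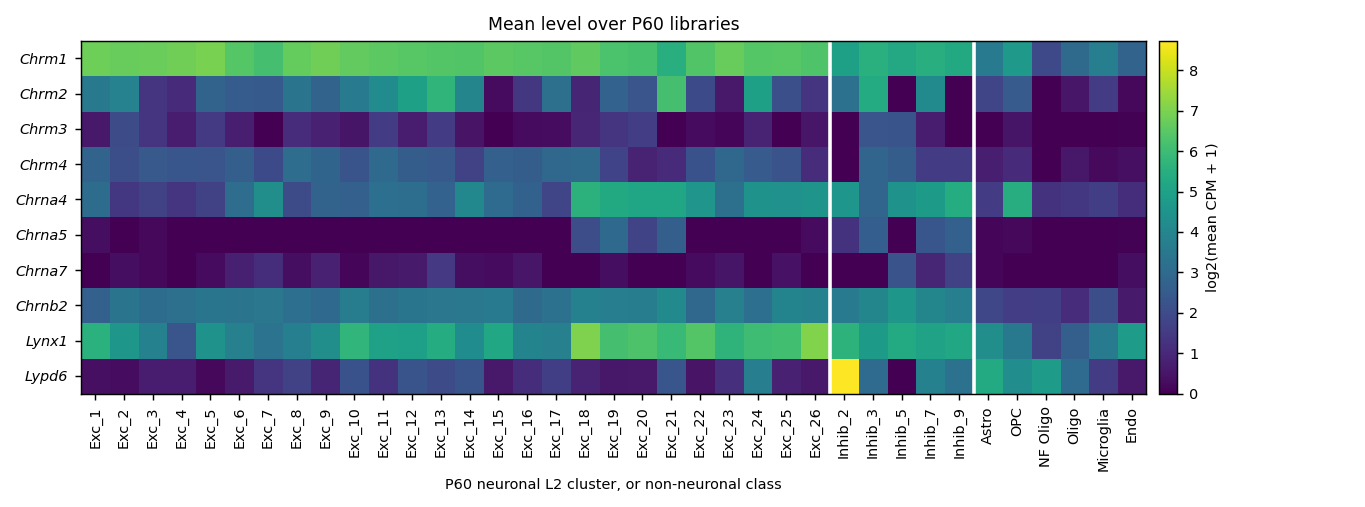
Mean CPM of the 10 genes over P60 libraries, drawn as log2(CPM + 1) by colour, for the neuronal L2 clusters with at least 3 libraries of 10 or more cells and for the 6 non-neuronal classes. Chrm1 was high across all 26 excitatory clusters, Chrm2 peaked in Exc_21 and Exc_13, Chrna4 in Exc_18 to Exc_21 and in oligodendrocyte precursors, Lynx1 in Exc_18 and Exc_26, and Lypd6 in Inhib_2. The Chrm2 level of Inhib_3 comes from 1 library.

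The M2 receptor was concentrated in few clusters. Chrm2 reached 70.2 ± 25.9 CPM in Exc_21 (n = 12), which carries Tshz2 and Etv1 of layer 5, and 51.6 ± 9.83 CPM in Exc_13 (n = 12). Exc_24 (30.3 ± 9.45, n = 11) and Exc_12 (30.2 ± 5.42, n = 12) came next among excitatory clusters, and their means differed from that of Exc_21 by more than the SDs. Across all excitatory neurons the level was 11.5 ± 2.40 CPM (n = 12), and the median cluster of the 74 compared stood at 1.33 CPM. Inhib_3 had a mean of 40.6 ± 72.2 CPM (n = 4). That value came from Cocaine_withdraw_48h replicate 2, at 148 CPM, with the 3 other libraries between 0 and 13.8 CPM. Inhib_1, a Sst cluster not among the 74, held a Chrm2 UMI in 27.8% of its 36 P60 cells.

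The gene whose levels across the 74 P60 clusters were most like those of Chrm2 was its neighbour 9330158H04Rik, a long noncoding RNA on the opposite strand. Pearson's r of log2(mean CPM + 1) was 0.80 over the 74 clusters and 0.85 over the 26 excitatory clusters, and it was 0.76 and 0.84 without Cocaine_withdraw_48h replicate 2. Clusters share libraries and depth, so r is a description. The noncoding RNA stood at 23.2 ± 10.9 CPM in Exc_21 and 10.9 CPM in Exc_13 at P60. Its highest P60 mean was in Inhib_3 (29.2 ± 42.1 CPM, n = 4), from 91.7 CPM in Cocaine_withdraw_48h replicate 2 against 0 to 13.8 CPM in the 3 other libraries. At P21 it was highest in Exc_21, with 60.6 ± 12.6 CPM beside 80.6 CPM of Chrm2, and then in Inhib_1, a Sst cluster, with 31.2 CPM beside 36.1 CPM of Chrm2. In the mm9 annotation Chrm2 lies on the plus strand at chr6:36338084-36478414 and 9330158H04Rik on the minus strand at chr6:36159620-36340191. They share 2108 bases at their 5′ ends, whereas 3′ ends were counted. The strand used in counting is not given in the sources used here, so whether reads there were told apart by strand is not known. Their RefSeq starts lie 150 bases apart. The promoters of both (250 bases before to 50 after the start, GRCm38.p6, RefSeq) are shown because the 2 genes overlap at their 5′ ends on opposite strands, with CCAAT or its reverse complement ATTGG, a common promoter motif, in capitals. The Chrm2 promoter is at chr6:36387834-36388133 on the plus strand and that of 9330158H04Rik at chr6:36388185-36388484 on the minus strand.
Chrm2: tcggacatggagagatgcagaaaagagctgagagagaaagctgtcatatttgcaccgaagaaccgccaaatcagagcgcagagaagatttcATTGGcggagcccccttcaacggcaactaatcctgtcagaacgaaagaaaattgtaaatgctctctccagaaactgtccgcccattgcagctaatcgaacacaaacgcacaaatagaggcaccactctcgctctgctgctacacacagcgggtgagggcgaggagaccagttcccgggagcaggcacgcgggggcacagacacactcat
9330158H04Rik: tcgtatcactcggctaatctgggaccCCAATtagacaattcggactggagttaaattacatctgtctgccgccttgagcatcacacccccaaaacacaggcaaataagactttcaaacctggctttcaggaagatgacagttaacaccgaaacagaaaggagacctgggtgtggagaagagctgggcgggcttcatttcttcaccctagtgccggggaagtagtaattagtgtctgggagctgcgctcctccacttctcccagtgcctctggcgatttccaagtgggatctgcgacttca
Each holds the motif once. Of 32851 promoters of this length, 12289 (37.4%) hold it on either strand, and of the 10 genes 8 have an entry, of which 3 hold it (Chrm2, Chrm4 and Lypd6).

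Chrm3 and Chrm4 were low throughout. Chrm4 stood at 4.14 ± 1.16 CPM in excitatory neurons at P60 (n = 12), with Exc_8 the highest of the 74 clusters (7.64 ± 4.69, n = 11), and the 35th cluster was the first to differ from it by more than the SDs. Chrm3 stood at 0.74 ± 0.54 CPM in excitatory neurons (n = 12), and none of the 74 clusters had a mean above 3.88 CPM. Of the clusters with fewer libraries, Inhib_10 had 5.20 CPM (n = 2) and OPC_1 22.7 CPM (n = 1), from 1 UMI each. The annotation gives Chrm3 as a single exon of 1949 bases, so that transcripts ending beyond it would not have been counted. Chrm4 overlaps Mdk on the opposite strand.

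Of the nicotinic subunits, Chrna4 was highest in deep-layer excitatory clusters, inhibitory neurons and oligodendrocyte precursors. At P60 its mean was 12.4 ± 3.31 CPM in excitatory neurons (n = 12), 28.7 ± 12.1 in inhibitory neurons (n = 12) and 42.8 ± 12.3 in oligodendrocyte precursors (n = 11), where the lowest, median and highest library had 25.6, 41.5 and 65.1 CPM. Other glia were near 0, with 1.91 ± 2.47 CPM in astrocytes and 2.04 ± 3.67 in microglia. Among excitatory clusters Exc_18 (47.8 ± 13.7, n = 7), Exc_19 (38.9 ± 6.22, n = 12) and Exc_20 (34.6 ± 19.6, n = 8) led, all with Foxp2 and Syt6 of layer 6. Inhib_9, a Vip cluster, had 41.9 ± 21.9 CPM (n = 6). None of these means differed from the highest of the 74, OPC_2 (62.5 ± 40.5, n = 8), by more than the SDs. Inhib_10, with only 2 libraries, had 103 CPM from 27 cells. With at least 30 cells per library, Exc_21 of layer 5 had the highest mean (37.0 ± 8.42 CPM, n = 10), ahead of Exc_19 (36.7 CPM).

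Chrna5 was sparse, and its higher levels lay in deep-layer excitatory and in some inhibitory clusters. It stood at 0.58 ± 0.30 CPM in excitatory neurons at P60 (n = 12) and at 6.91 ± 4.09 in Exc_19 (n = 12) and 5.24 ± 4.17 in Exc_21 (n = 12), while Inhib_9 had 5.37 ± 6.50 (n = 6). Among clusters with fewer libraries, Inhib_10 had 21.4 ± 13.9 CPM (n = 2, 4 UMIs) and Inhib_8 10.4 ± 14.6 CPM (n = 2, 2 UMIs), both above Exc_19, and OPC_4 27.3 CPM (n = 1). At P21 Inhib_10 again had the highest mean of the neuronal clusters (13.6 ± 1.64 CPM, n = 2, 2 UMIs), followed by Exc_21 (12.3 CPM, n = 3). Only 0.748% of excitatory cells and 2.43% of inhibitory cells held a UMI, with none among the microglia, and Exc_19, Exc_21 and Inhib_9 differed by less than their SDs. Chrnb2, the partner of α4, was spread more evenly, with a mean over 12 libraries of 9.96 ± 2.20 CPM in excitatory neurons and of 15.2 ± 5.77 in inhibitory ones and its highest mean in Inhib_5 (23.9 ± 10.1, n = 3). Chrna7 was close to the limit of detection, with 0.31 ± 0.19 CPM in excitatory neurons (n = 12), a UMI in 0.429% of excitatory cells and none of the 74 clusters above 4.53 CPM.

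Lynx1 was a gene of deep-layer excitatory clusters in particular. Excitatory neurons held it at 39.7 ± 11.3 CPM at P60, and inhibitory neurons at 30.7 ± 12.0 CPM (n = 12 each). Exc_26 (135 ± 77.5 CPM, n = 8) and Exc_18 (132 ± 16.1, n = 7) led, and Exc_22 (82.3 ± 17.8, n = 9) was the first to lie below Exc_18 by more than the SDs. Lynx1 was not confined to neurons, since endothelial cells had 26.7 ± 8.62 CPM (n = 12) and 11.2% of them held a UMI, against 1.93% of microglia. At 2000 UMIs per cell these shares were 4.01% and 0.760%, and that of excitatory cells was 7.32%.

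Among the clusters compared, Lypd6 had a single dominant site. Inhib_2, a Sst cluster, stood at 425 ± 97.1 CPM at P60 (n = 6), and the next cluster, Astro_8, at 65.3 ± 46.2 CPM (n = 9) differed from it by more than the SDs. The 4 next clusters were all glial. Inhib_1, a Sst cluster with too few libraries to be compared, held a Lypd6 UMI in 61.1% of its 36 P60 cells. At P21 the share was 53.1% of 98 cells. In Inhib_2 the shares were 85.7% of 112 cells at P60 and 79.5% of 341 at P21. As a class, astrocytes had 39.1 ± 11.5 CPM (n = 11), excitatory neurons 2.00 ± 0.33 CPM and inhibitory neurons 52.5 ± 36.5 CPM (n = 12 each). Inhibitory cells held 41.1% of the 1322 Lypd6 UMIs at P60, excitatory cells 30.6% and astrocytes 16.6%. The pattern of Lypd6 was unlike that of every other gene of the group, with r of at most 0.09 across clusters, whereas Chrm1 and Chrm4 (r = 0.78) and Chrm1 and Chrnb2 (r = 0.74) were the most alike.

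Between P21 and P60, the genes for the nicotinic subunits α4 and α5 and for Lypd6 were called lower in excitatory neurons. No muscarinic gene was called there. The calls of Chrna4 and Chrna5 were not kept with equal numbers of cells drawn from each L2 cluster. Of the 10 genes, 9 passed the filter on low counts and 3 were called, all lower at P60. Of all genes tested, 19.3% were called and 11.1% were called lower. Chrna7 did not pass.

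Lypd6 had 4.05, 7.86 and 7.25 CPM in the 3 P21 libraries of excitatory neurons, and 1.77, 1.90 and 2.46 CPM in the lowest, median and highest of the 6 saline P60 libraries. The groups did not overlap, and Lypd6 fell by 1.56 on the log2 scale (SE 0.22, adjusted p = 1.74e-04, edgeR). The call held under each of the 17 alternatives. With the P21 cells weighted to the adult makeup of L2 clusters the log2 ratio of pooled levels was −1.65, against −1.48 unweighted. By cluster, Lypd6 passed the filter in 1 excitatory cluster, Exc_24, and fell there from 25.7, 36.8 and 25.3 CPM to 7.39 to 15.1 CPM in 5 saline libraries (log2 change −1.18, SE 0.32, adjusted p = 0.0071, edgeR). In Exc_12 Lypd6 did not pass the filter, with 13.7, 14.8 and 17.6 CPM at P21. Microglia, taken above as the background of free RNA, held a Lypd6 UMI in 1.65% of 182 cells at P21 and 0.622% of 1448 at P60. Their P21 libraries had 7.93, 0 and 0 CPM. Endothelial cells went from 0.837% to 0.309%, and excitatory cells, with more UMIs per cell, from 4.35% to 2.50%. The part of free RNA in the fall over all excitatory neurons was not tested. The Lypd6 promoter (chr2:50066179-50066478, plus strand, GRCm38.p6, RefSeq) holds the CCAAT motif once on each strand.
Lypd6: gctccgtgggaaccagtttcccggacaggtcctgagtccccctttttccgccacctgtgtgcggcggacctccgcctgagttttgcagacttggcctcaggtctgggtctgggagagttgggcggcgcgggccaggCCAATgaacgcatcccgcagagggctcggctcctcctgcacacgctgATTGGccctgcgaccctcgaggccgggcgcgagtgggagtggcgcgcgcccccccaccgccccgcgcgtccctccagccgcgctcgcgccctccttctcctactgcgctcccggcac
It is shown because Lypd6 had the largest fall among the 9 genes tested in excitatory neurons.

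Chrna4 had 22.2, 19.3 and 24.6 CPM at P21 and 7.01, 11.6 and 16.2 CPM in the lowest, median and highest saline library of excitatory neurons, again without overlap. It fell by 0.86 on the log2 scale (SE 0.22, adjusted p = 0.0085, edgeR). Cluster makeup, as annotated, moved with this result. Exc_18 made up 6.09% of excitatory cells at P21 and 1.41% at P60, and Exc_20 8.37% and 1.06%, both clusters rich in Chrna4. With equal numbers of cells drawn from each L2 cluster the log2 change was −0.35 (SE 0.28, adjusted p = 0.3872, edgeR) and the call was lost. Within Exc_19, however, Chrna4 fell from 62.5, 55.8 and 71.0 CPM to 26.6 to 45.2 CPM in 6 saline libraries (log2 change −0.75, SE 0.18, adjusted p = 0.0031, edgeR), a call that held under all 17 alternatives. In Exc_18 the change was of similar size (−0.65, SE 0.25) but not called (adjusted p = 0.1149, edgeR). Of the 9 excitatory clusters in which Chrna4 was tested, 7 had a value below 0.

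Chrna5 had 1.56, 1.56 and 1.81 CPM at P21 and 0 to 0.92 CPM in the saline libraries, with 87 UMIs in all at P21 and 59 in the saline libraries. It fell by 1.26 on the log2 scale (SE 0.33, adjusted p = 0.0087, edgeR). At fixed cluster makeup the log2 ratio of pooled levels went from −1.28 to −0.59, and with equal cells per cluster the gene no longer passed the filter. It passed in no single L2 cluster.

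The other genes of excitatory neurons were not called. Chrm2 had an adjusted p of 0.0474 (edgeR), but its change of +0.41 (SE 0.15) was below 1.5-fold, with 8.55, 9.34 and 8.77 CPM at P21 and 8.75 to 14.6 in the saline libraries. Chrm1, at 87.0, 81.2 and 87.8 CPM at P21 and 72.7 to 108 in the saline libraries, differed by +0.13 (SE 0.11, adjusted p = 0.3507, edgeR). Chrnb2 differed by −0.43 (SE 0.22) and Lynx1 by −0.49 (SE 0.23), with adjusted p-values of 0.1291 and 0.1134 (edgeR). Chrm3 and Chrm4 differed by −0.12 (SE 0.49) and +0.02 (SE 0.21).

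**Figure D2:**
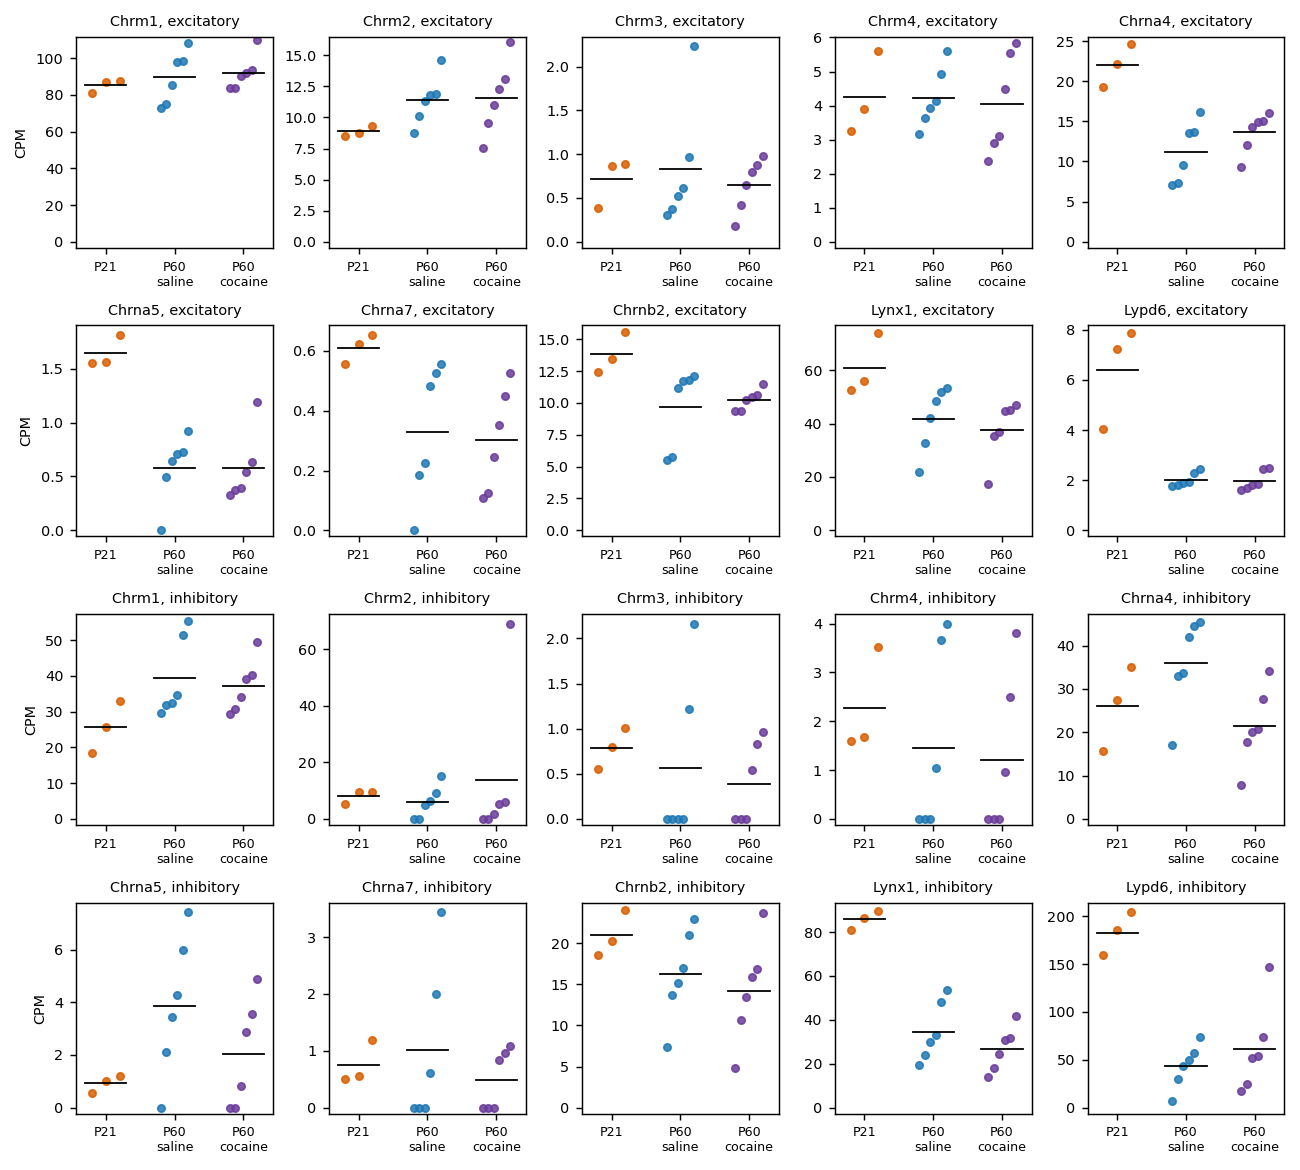
CPM of the 10 genes in each library, for excitatory neurons (upper 2 rows) and inhibitory neurons (lower 2 rows), with 1 point per library and the mean as a line. In excitatory neurons the 3 P21 libraries lie above all saline libraries for Chrna4, Chrna5, Chrna7, Chrnb2 and Lypd6. Of these, Chrna7 did not pass the filter and Chrnb2 was not called. In inhibitory neurons the P21 libraries lie above for Lynx1 and Lypd6. How many of all genes separate the ages in this way was not counted. Saline and cocaine libraries overlap for every gene. The single high Chrm2 point among the inhibitory cocaine libraries is Cocaine_withdraw_48h replicate 2.

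Over all excitatory neurons Lynx1 was not called. By cluster it was called lower in some clusters with high levels and, less stably, higher in some with low counts. It passed the filter in 19 excitatory clusters, with 12 values above 0 and 7 below, from −0.97 in Exc_22 to +2.90 in Exc_5. It was called in 8 of them, 4 in each direction. Without P21 replicate 3, or without Saline_withdraw_15d replicate 2, the 4 falls were called and none of the rises. The filter on low counts could be passed through the saline libraries alone, as in Exc_5, where 2 of 96 P21 cells held a UMI. Clusters with low Lynx1 counts at both ages were not tested, so the numbers above and below 0 depend on the filter. A joint edgeR test of the age change across the 26 excitatory clusters gave Lynx1 an adjusted p of 1.21e-13, and the call held under all 16 alternatives. The 216 sums tested came from 3 P21 and 6 saline libraries, so many share a library, and the fit held a term for each library. In that test 3 of the 6 genes that passed the filter were called, Lynx1, Chrm1 and Chrm2, against 25.3% of all genes.

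The falls of Lynx1 lay in Exc_21, Exc_22, Exc_24 and Exc_25, and each was called under all 17 alternatives. Exc_22, Exc_25 and Exc_21 carry Etv1. In Exc_22 the P21 libraries had 165, 139 and 206 CPM and the 5 saline libraries 75.0 to 89.6 CPM (log2 change −0.97, SE 0.16, adjusted p = 1.27e-04, edgeR). In Exc_25 the values were 146, 154 and 122 CPM at P21 and 47.8 to 99.4 in 6 saline libraries (−0.84, SE 0.16, adjusted p = 3.02e-04). In Exc_21, the layer 5 cluster with the most Chrm2, they were 130, 117 and 116 CPM and 34.8 to 76.9 (−0.96, SE 0.18, adjusted p = 4.67e-04). Exc_24 went from 148, 110 and 111 CPM to 28.2 to 81.3 (−0.84, SE 0.19, adjusted p = 0.0019). None of these 4 clusters showed overlap between the ages.

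The rises lay in Exc_2, Exc_5, Exc_9 and Exc_16, clusters with Cux2, where Lynx1 was far lower. In Exc_5 the P21 libraries had 2.75, 5.31 and 0 CPM, from 2 UMIs in 96 cells, and the saline libraries 4.41 to 31.2 CPM, from 62 UMIs in 273 cells (log2 change +2.90, SE 0.84, adjusted p = 0.0231, edgeR). In Exc_2 they had 11.8, 6.83 and 0 CPM and 14.2 to 33.5 CPM (+1.52, SE 0.44, adjusted p = 0.0197). Exc_9 had 9.18, 2.89 and 3.38 CPM and 2.57 to 53.7 CPM (+1.60, SE 0.51, adjusted p = 0.0423), and Exc_16 8.01, 7.80 and 9.49 CPM and 6.52 to 22.4 CPM (+1.16, SE 0.38, adjusted p = 0.0410). Groups overlapped in Exc_5, Exc_9 and Exc_16 but not in Exc_2. These calls were less stable, since of 17 alternatives they held under 11 in Exc_2, 10 in Exc_5, 8 in Exc_9 and 8 in Exc_16. The gene was tested there in 13, 13, 16 and 14 of the 17. With P21 libraries 2 and 3 summed as 1, since they may share animals, the calls in Exc_9 and Exc_16 were lost. The P21 means of these 4 clusters (2.69 to 8.43 CPM) lay below the pooled 17.9 CPM of P21 microglia, which came from 8 UMIs, and their saline means (17.0 to 23.7 CPM) lay within the range of the pooled non-neuronal classes at P60, from 3.96 CPM in newly formed oligodendrocytes to 28.3 CPM in endothelial cells. At P60 11.2% of endothelial cells held a Lynx1 UMI against 1.93% of microglia, so the upper end of that range is no measure of free RNA. The part of free RNA in the low levels of the 4 clusters was not tested.

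**Figure D3:**
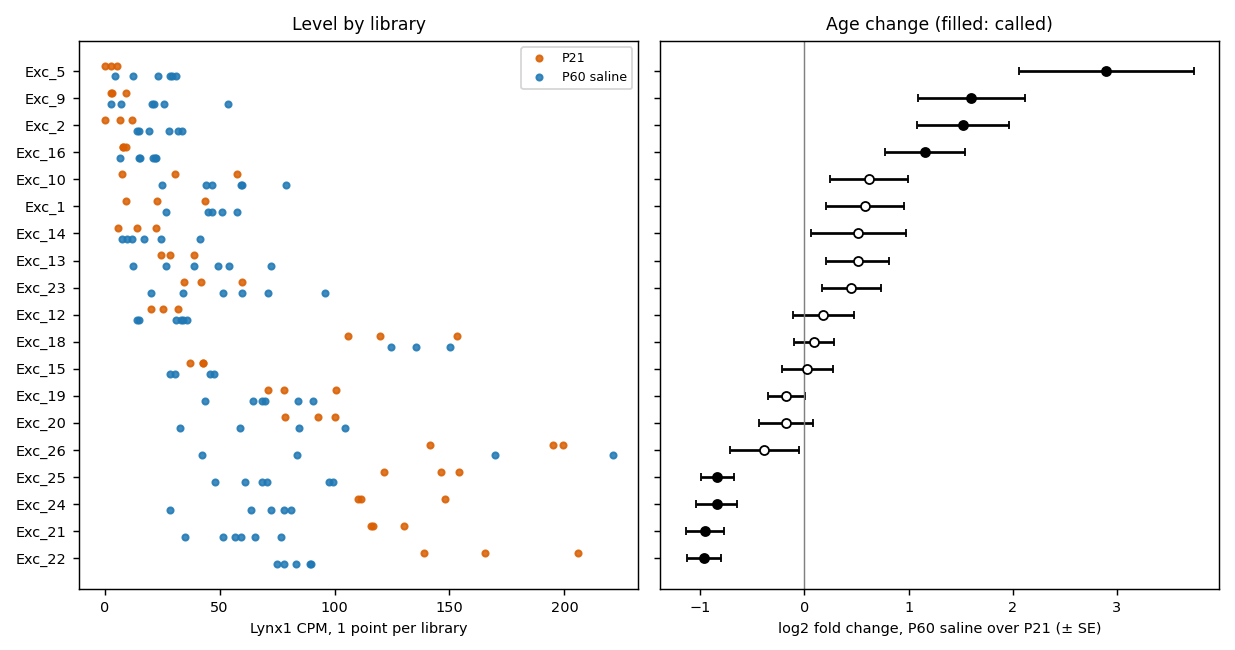
Lynx1 in the 19 excitatory L2 clusters that passed the filter, ordered by age change. Left, CPM of each P21 and saline P60 library with at least 10 cells. Right, log2 fold change of saline P60 over P21 with its SE, filled where called. Exc_5, Exc_9, Exc_2 and Exc_16 at the top rose from P21 levels below 12 CPM, and Exc_25, Exc_24, Exc_21 and Exc_22 at the bottom fell from levels above 110 CPM.

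Over all 10 genes and the 29 neuronal L2 clusters that could be fitted, 72 pairs were tested and 12 called, against 10.6% of gene and cluster pairs over all genes. DESeq2 called 8 of the 72, and edgeR called 6 pairs without P21 replicate 3 and 8 each without P21 replicate 2, Saline_withdraw_15d replicate 1 or Saline_withdraw_15d replicate 2. Besides the 8 calls of Lynx1 and those of Chrna4 in Exc_19 and Lypd6 in Exc_24, the 2 others were rises of Chrm2. In Exc_13 Chrm2 went from 28.9, 32.1 and 22.6 CPM to 40.1 to 61.7 CPM in 6 saline libraries, without overlap (log2 change +0.85, SE 0.25, adjusted p = 0.0234, edgeR). In Exc_24 it went from 15.1, 23.6 and 12.7 CPM to 22.2 to 37.7 CPM, with overlap (+0.84, SE 0.30, adjusted p = 0.0365). The first held under 11 of the 16 alternatives in which it was tested and the second under 9 of 17, and the first was lost with P21 libraries 2 and 3 summed as 1. In Exc_21, where Chrm2 was highest, the value was −0.24 (SE 0.20, adjusted p = 0.4508). The joint test of Chrm2 across clusters gave an adjusted p of 0.0432 and was called under 7 of 16 alternatives, not with P21 libraries 2 and 3 summed. That of Chrm1 gave 0.0065 and was lost without P21 replicate 2, although no single cluster was called for Chrm1 among 26, with values from −0.40 to +0.47. Chrnb2 was tested in 5 excitatory clusters and all 5 values lay below 0, none of them called.

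In inhibitory neurons Lynx1 and Lypd6 were lower at P60, and the share of Inhib_2 cells moved with both. Of 5 genes that passed the filter, these 2 were called, against 14.0% of all genes. Lynx1 had 89.7, 86.6 and 81.1 CPM at P21 and 19.5, 31.3 and 53.5 CPM in the lowest, median and highest saline library (log2 change −1.16, SE 0.20, adjusted p = 7.59e-04, edgeR). Lypd6 had 159, 185 and 204 CPM at P21 and 6.87, 46.8 and 73.5 CPM in the saline libraries (−1.88, SE 0.28, adjusted p = 0.0011). Neither gene overlapped between the ages, and both calls held under all 17 alternatives.

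The makeup of the inhibitory cells, as annotated, differed between the ages. Since P21 cells were assigned to the P60 clusters by correlation, a difference in makeup cannot be told apart from one in assignment. Inhib_2 held 35.2% ± 2.90 of inhibitory cells at P21 (n = 3) and 8.77% ± 4.17 at P60 (n = 12), with no library of one age within the range of the other. Inhib_6, a Pvalb cluster, held 16.3% and 2.56%, and Inhib_7, with Gad1, 8.25% and 31.4%. Within Inhib_2 the level of Lypd6 was 367, 420 and 418 CPM at P21 and 531, 489 and 385 CPM in the 3 saline libraries with at least 10 of its cells, which overlapped (log2 change +0.18, SE 0.18, adjusted p = 0.7218, edgeR). Weighted to the adult makeup, the pooled P21 level of Lypd6 in inhibitory neurons was 56.0 CPM in place of 181 CPM, against 52.9 CPM in the saline libraries, so the log2 ratio went from −1.77 to −0.08. For Lynx1 the weighted P21 level was 52.2 CPM in place of 86.1 CPM, against 40.8 CPM, and the log2 ratio went from −1.08 to −0.35. Within Inhib_2 Lynx1 differed by −0.77 (SE 0.41, adjusted p = 0.4403, edgeR) and within Inhib_7 by −0.13 (SE 0.42, adjusted p = 0.9174), neither of them called.

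**Figure D4:**
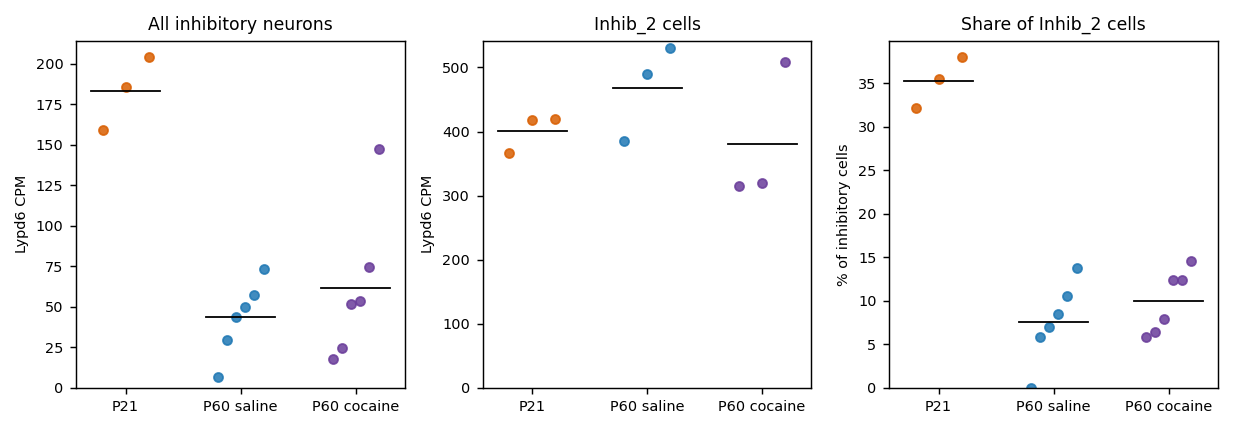
Lypd6 in inhibitory neurons, with 1 point per library and the mean as a line. Left, CPM over all inhibitory cells, with P21 libraries at 159 to 204 CPM and saline libraries at 6.87 to 73.5 CPM. Middle, CPM within Inhib_2 for libraries with at least 10 of its cells, where P21 and P60 libraries overlap. Right, the percentage of inhibitory cells in Inhib_2, 35.2 at P21 and 8.77 at P60 on average.

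The other genes tested in inhibitory neurons were not called. Chrm1 had 33.1, 18.4 and 25.7 CPM at P21 and 29.7 to 55.4 in the saline libraries (+0.62, SE 0.23, adjusted p = 0.0667, edgeR), and was called when P21 replicate 1 or Saline_withdraw_15d replicate 2 was left out, with adjusted p-values from 0.0129 to 0.2558 over the alternatives. Chrna4 had 27.5, 35.2 and 15.6 CPM and 17.2 to 45.4 (+0.45, SE 0.25, adjusted p = 0.2173). Chrnb2 differed by −0.21 (SE 0.23, adjusted p = 0.5687).

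The interaction of age and class, inhibitory against excitatory, was called in edgeR for 3 of the 8 genes tested, against 7.19% of all genes. The 3 include Chrna5, which was too low in inhibitory neurons to be tested there. Lynx1 went lower with age in inhibitory than in excitatory neurons by 0.76 on the log2 scale (difference −0.76, SE 0.16, adjusted p = 5.02e-04). For Chrna5 the term was +3.14 (SE 0.79, adjusted p = 0.0049, edgeR). Chrna5 did not pass the filter in inhibitory neurons alone, where it had 6 UMIs at P21 and 17 in the saline libraries. It entered this fit through its excitatory counts, so no class difference is read from it. The calls of Lynx1 and Chrna5 held under all 16 alternatives, none of which fixed the cluster makeup. Chrna4 differed by +1.16 (SE 0.34, adjusted p = 0.0466), which held under 8 of 16, with adjusted p-values from 2.47e-06 to 0.2019. For Lypd6, lower at P60 in both classes, the difference was −0.38 (SE 0.28, adjusted p = 0.4867). Cluster makeup moved with these differences. From pooled levels the log2 ratio in inhibitory neurons less that in excitatory neurons was −0.58 for Lynx1, +1.21 for Chrna4 and +3.27 for Chrna5, and with the P21 cells weighted to the adult makeup it was −0.05, +0.38 and +2.40. For Lypd6 it went from −0.29 to +1.56. The weighted values carry no test.

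In non-neuronal cells only 3 pairs of gene and type passed the filter, and none was called by edgeR or by DESeq2, with 0 at an unadjusted p under 0.05, against 8.05% called over all genes and 5 types. Lypd6 differed by +0.23 (SE 0.62) in astrocytes, and in endothelial cells Chrm1 differed by +0.50 (SE 0.67) and Lynx1 by +0.36 (SE 0.26). Oligodendrocyte precursors, the non-neuronal type with the most Chrna4, had too few cells at P21 (41) to be fitted.

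Other genes of the cholinergic system were read in lists of 41 genes beside the 10. In excitatory neurons 22 of them were tested and 3 were called, all lower at P60, with a median log2 change of −0.01, against 19.3% of all genes called, so the share was not above that of all genes. They were the 2 Ly6 genes Lypd1 (−0.91, SE 0.13, adjusted p = 1.74e-04) and Lypd6b (−1.15, SE 0.20, adjusted p = 6.24e-04), and Colq (−1.32, SE 0.34, adjusted p = 0.0077), the collagen tail that anchors acetylcholinesterase. Counting Lypd6, which was among the 10, 3 of the 7 Ly6 genes tested were called lower, with a median of −0.49, where 11.1% of all genes were called lower. The lists were chosen with earlier results of these data known, so this count is only a description. The family was not tested as a set. None of the 12 genes for Gq and Gi signalling partners and neither of the 2 receptor chaperones tested was called. In inhibitory neurons 18 of the 41 were tested and only Lypd6b was called (−1.44, SE 0.33, adjusted p = 0.0139), against 14.0% of all genes. In endothelial cells 2 of the 13 genes tested were called, against 12.7% of all genes, and both were higher at P60, Lypd1 (+1.01, SE 0.31, adjusted p = 0.0376) and Ric3 (+1.52, SE 0.28, adjusted p = 0.0015), a chaperone of nicotinic receptors.

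Cocaine was compared with saline within each phase, with 2 libraries against 2 and 1 estimate of the spread from all 12 P60 libraries. No gene of the 10 was called in any phase, in either neuron class, by edgeR or by DESeq2. In excitatory neurons 9 genes were tested, and called genes made up 0% of all genes tested at maintenance, 0% at 48 h and 0.704% at 15 d. At an unadjusted p under 0.05 there was 1 of the 9 at maintenance with either tool and 0 at the later phases. It was Chrna4, with 9.62 and 7.01 CPM in saline and 12.0 and 15.1 CPM in cocaine libraries, which did not overlap (log2 change +0.72, SE 0.33, adjusted p = 0.7420, edgeR). At 48 h the same gene had 7.26 and 13.6 CPM in saline and 9.35 and 16.0 CPM in cocaine libraries (+0.24, SE 0.28), and at 15 d it had 16.2 and 13.7 against 14.3 and 14.9 CPM (+0.01, SE 0.24).

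Lynx1 varied between libraries of one group. It had 48.6 and 21.9 CPM in saline at maintenance, and 17.2 and 44.6 CPM in cocaine at 48 h against 32.7 and 51.7 CPM in saline (−0.46, SE 0.45). Chrm1, the best counted of the 10, had 83.5 and 110 CPM in cocaine and 75.0 and 85.5 CPM in saline at 48 h (+0.25, SE 0.15, adjusted p = 0.9787, edgeR), and differed by −0.04 (SE 0.15) at maintenance and −0.06 (SE 0.14) at 15 d. Over all phases together, and for differences between phases, none of the 9 genes was called by either tool, none had an unadjusted p under 0.05, and 0% of all genes were called in each of these tests.

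Inhibitory neurons were few in some libraries, from 19 to 218 cells, and 6 genes were tested. None was called, against 0% of all genes at maintenance, 0.0115% at 48 h and 0.839% at 15 d. At an unadjusted p under 0.05 edgeR gave 1, 2 and 0 genes and DESeq2 1, 1 and 0. The gene at maintenance was Lypd6, with 29.7 and 6.87 CPM in saline and 24.4 and 147 CPM in cocaine libraries (+2.84, SE 1.17, adjusted p = 1, edgeR). Inhib_2 held 2 of 19 and 0 of 28 inhibitory cells in those saline libraries and 2 of 34 and 7 of 48 in the cocaine ones. At 48 h they were Lynx1, with 19.5 and 53.5 CPM in saline and 14.2 and 18.2 CPM in cocaine (−1.23, SE 0.41, adjusted p = 0.7881), and Chrna4, with 45.4 and 33.6 against 17.7 and 20.1 CPM (−0.94, SE 0.40, adjusted p = 0.9146). Cluster makeup differed between these libraries. Inhib_7 held 22 of 59 and 44 of 109 inhibitory cells in saline and 16 of 31 and 40 of 152 in cocaine, and Inhib_3 held 58 of the 152 in cocaine replicate 2, the library that stood apart. The part of makeup in these differences was not tested. Chrna4 also lay below saline at maintenance (−0.55, SE 0.68) and at 15 d (−0.56, SE 0.29). Over all phases together it differed by −0.69 (SE 0.28, unadjusted p = 0.0215, adjusted p = 0.9286, edgeR), the only 1 of the 6 genes with an unadjusted p under 0.05 by edgeR, with 0% of all genes called. For differences between phases none of the 6 had such a p by edgeR or DESeq2.

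Chrm2 in inhibitory neurons turned on the library that stood apart. At 48 h it had 15.1 and 6.30 CPM in saline libraries and 0 and 69.0 CPM in cocaine libraries (+2.35, SE 1.06, adjusted p = 0.9999, edgeR). With Cocaine_withdraw_48h replicate 1 left out, so that replicate 2 stood alone for its group, it was called at +2.88 with an adjusted p of 1.06e-04, and without replicate 2 it did not pass the filter. In Inhib_7 replicate 2 had 116 CPM in 40 cells, against 0 to 16.3 CPM in 8 other P60 libraries, and the 9330158H04Rik level there was 53.4 CPM against 0 to 5.55 CPM. Meis2 stood at 468 CPM in the same 40 cells, against 0 to 27.8 CPM.

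**Figure D5:**
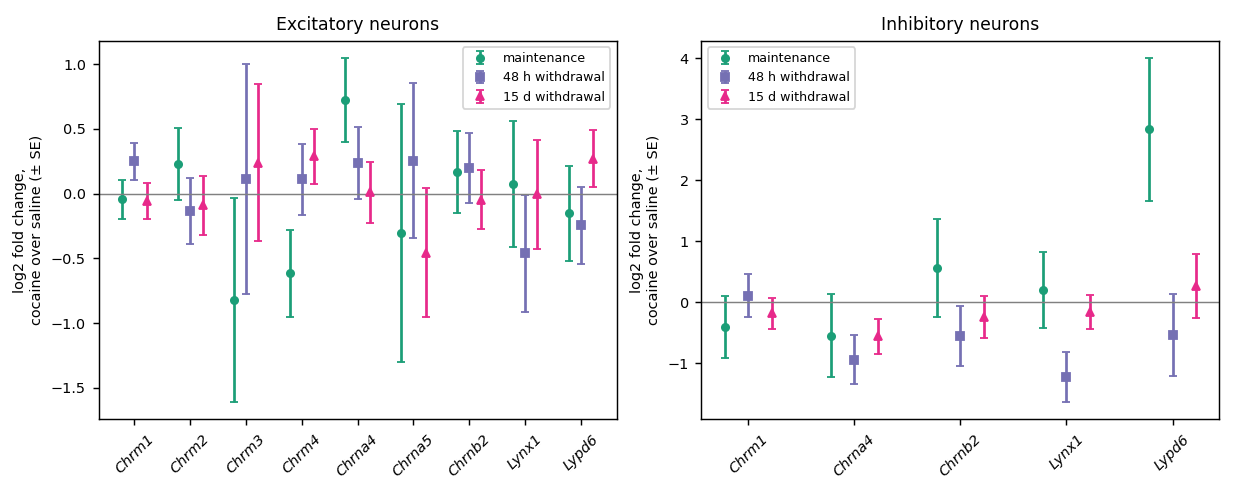
Log2 fold change of cocaine over saline with its SE in excitatory neurons (left, 9 genes) and inhibitory neurons (right, 5 genes) at maintenance, 48 h and 15 d of withdrawal, 2 libraries against 2 in each. No value was called. Chrm2 in inhibitory neurons is not drawn, since both saline libraries at maintenance had 0 UMIs. The SEs are widest for Chrm3 and Chrna5, the least counted of the excitatory genes, and for Lypd6 in inhibitory neurons at maintenance.

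By L2 cluster, 183 combinations of gene, neuronal cluster and phase were tested and none was called by edgeR or DESeq2, against 0.536% of combinations over all genes. At an unadjusted p under 0.05 there were 13 by edgeR and 4 by DESeq2. Without Cocaine_withdraw_48h replicate 1, with replicate 2, the library that stood apart, as the only cocaine library at 48 h and assumed to vary like the other groups, Chrm2 was called in Inhib_7 (+3.48, adjusted p = 3.29e-04, edgeR). The call restates the high level of that library. Among the 41 other cholinergic genes, Ly6h was the only 1 of 17 tested called after 15 d of withdrawal in inhibitory neurons, against 0.839% of all genes, and was higher (+0.78, SE 0.19, adjusted p = 0.0492). In excitatory neurons 21 of the 41 were tested and none was called at maintenance, 48 h or 15 d by edgeR, against 0%, 0% and 0.704% of all genes.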

How the data were processed

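Droplet libraries (10x Genomics) of dissociated PFC were sequenced and counted by the authors against mm9, and the deposited matrices hold UMI counts per gene and cell. The authors removed cells with few genes, with unusually many genes (possible doublets) or with a high mitochondrial share, which the deposited cell table gives as a fraction. They clustered the P60 cells and assigned P21 cells to those clusters by correlation. Class and L2 cluster were used as deposited; 492 cells, 459 of them at P21, had a class and a cluster that disagree and were kept. No doublet caller was run here.

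Counts were summed per library and class or cluster, without 13 mitochondrial and 85 ribosomal protein genes, and a library with under 10 cells of a type was left out. The sums were tested across libraries with edgeR 4.0.16 (quasi-likelihood, TMM scaling, filter on low counts), and with DESeq2 1.42.0 as an alternative. Contrasts were saline P60 against P21, cocaine against saline in each phase within 1 fit of 12 libraries, the interaction of age with class, and a joint test of age across 26 excitatory clusters, for which the deviance-adjusted version of edgeR's fit was used. Levels across clusters are means ± SD over libraries and were not tested, since the clusters were made from the same genes. The means of 2 clusters were said to differ by more than the SDs where the higher mean less its SD exceeded the lower mean plus its SD. For fixed makeup, pooled P21 cluster levels were weighted by the makeup of the saline libraries. Replicates are separate libraries, each from pooled mice, and counting error is part of the spread between them. Code was tested on simulated data. The genes named by rule are the 10, the list genes called, and the 2 genes most like each. Cell type markers, 1 overlapping gene (Mdk), and Meis2 and Trh, picked after their values were seen, are named beside them. The 10 genes, the gene lists and some tests were chosen with earlier results of these data known.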

Additional observations from a re-analysis of the deposited data

Results flagged for a closer look

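A single library was far from the others of its treatment in 3 of 40 sets of libraries checked by Dixon's test, of which chance picks about 1 in 20. Chrm2 in inhibitory neurons stood at 69.0 CPM in Cocaine_withdraw_48h replicate 2, and at 0 to 5.84 CPM in the 5 other cocaine libraries. Chrm3 in excitatory neurons stood at 2.24 CPM in Saline_Maintenance replicate 1, and at 0.30 to 0.97 CPM in the 5 other saline libraries. Chrna5 in excitatory neurons stood at 1.20 CPM in Cocaine_withdraw_48h replicate 2, and at 0.33 to 0.63 CPM in the 5 other cocaine libraries.

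The interaction of age and class, inhibitory against excitatory, was called for Chrna4 (+1.16 on the log2 scale), Chrna5 (+3.14) and Lynx1 (−0.76). With the P21 cells weighted to the adult cluster makeup, the difference in log2 ratio of pooled levels between the classes went from +1.21 to +0.38 for Chrna4, from +3.27 to +2.40 for Chrna5 and from −0.58 to −0.05 for Lynx1, values with no test. The interaction of Chrna4 was called under 8 of 16 alternatives. Chrna5 did not pass the filter in inhibitory neurons alone, with 6 UMIs at P21 and 17 in the saline libraries, so no class difference is read from it. The age change differed among excitatory L2 clusters, by the joint test in edgeR, for Chrm1 (adjusted p = 0.0065), Chrm2 (0.0432) and Lynx1 (1.21e-13).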

How the results depend on the processing

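Of 292 values of counts and top levels under the settings tried, 284 kept their side of the threshold or stayed within 1.5 times the reported value or 1 SD. With equal numbers of cells per L2 cluster, 1 gene in place of 3 was called with age in excitatory neurons, since Chrna4 lost its call and Chrna5 did not pass the filter. With at least 30 cells per library, 7 pairs of gene and neuronal L2 cluster in place of 12 were called with age, since fewer libraries and clusters entered. Other settings gave more. With no filter on low counts, Lypd6 in Exc_12, Exc_13, Exc_14, Exc_19 and Exc_25 and Lynx1 in Exc_3 were called as well. With all 12 P60 libraries Chrna4 in Exc_20, Chrnb2 in Exc_21 and Lynx1 in Exc_7 were gained and Lynx1 in Exc_16 was lost. Leaving out 1 library at a time gave 6 to 10 such pairs, the fewest without P21 replicate 3, and 1 to 3 genes in the joint test across clusters, the fewest without P21 replicate 2; the cause was not tested. For cocaine at 48 h in inhibitory neurons, 1 gene (Chrm2) in place of 0 was called with no filter on low counts, and 0 to 1 with 1 library left out, the 1 being without Cocaine_withdraw_48h replicate 1. The same held by L2 cluster, with 1 combination (Chrm2 in Inhib_7) in place of 0 with no filter and 0 to 1 with 1 library left out. Of 1537 alternative values of log2 changes reported by class, between the classes or for the 12 called pairs, none reversed a call, 41 lost and 6 gained one; the joint test and pairs not called are not among these. Settings added after seeing the data were the one that kept only cells whose class and cluster agree, the cocaine combinations by cluster, the weighted makeup and the subsets for Chrm2 and its neighbour. No paired analysis was possible because the replicate numbers only follow the order of the samples. Depth limits Chrm3, Chrna5 and Chrna7, with 168, 243 and 113 UMIs over all cells, and the inhibitory libraries with few cells.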

Other observations

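Across the 74 P60 L2 clusters of all cell types, the genes whose levels followed each receptor most closely were read from 13878 candidates, or 13879 where the gene itself was too low to be one. Clusters share libraries and depth, so the values of r describe these data and were not tested. Chrm1 was followed by Cnnm1 (r = 0.94) and Syt5 (0.93), Chrm4 by Hpca (0.86) and Stx1a (0.85), and Chrnb2 by Syp (0.86) and Got1 (0.86). Syt5, Stx1a and Syp code for proteins of synaptic vesicles and their release, and Hpca for the calcium sensor hippocalcin. Chrna5 was followed by Hcrtr2 (0.85), the second orexin receptor, and Cndp1 (0.80), and Chrna4 by Fxyd6 (0.83) and Tmem179 (0.82). Lynx1 was followed by 1700020I14Rik (0.79) and Plxna2 (0.78), a semaphorin receptor, and Chrm2, after its neighbour, by the granin Scg2 (0.73). Lypd6 was followed by Aldoc (0.71), an aldolase abundant in astrocytes, and Frmpd1 (0.71). Chrm3 (Wisp1, 0.74, and Fam40b, 0.71) and Chrna7 (Apoa2 and A930005I04Rik, 0.56 each) rest on few UMIs, and so does Chrna5, which was above 0 in 13 of the 74 clusters. Hcrtr2 was highest of these in Inhib_7 (22.4 CPM), not in the clusters with the most Chrna5. Cnnm1 was also highest of the 74 in Inhib_7 (103 CPM), whereas Chrm1 was highest in Exc_5 (126 CPM). A high r over clusters of all cell types thus does not mean the same top clusters.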
